A study of Bos taurus with 8 samples.

Results

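The transcripts of the proteasome were followed in 4-cell and 8-cell bovine embryos that were either controls or edited in RPL12. The proteasome genes were taken by symbol: every gene of the expression table whose symbol starts with PSMA, PSMB, PSMC, PSMD, PSME, PSMF or PSMG followed by a number, which gave 49 of 16606 genes. Of these, 47 had a mean of at least 1 CPM (reads per 1000000 reads) over the libraries and were tested. All 47 were at 1 CPM or more in every library, so none was kept by a single group. The 2 others, PSMB5 and PSMB11, had at most 15 and 16 reads in any library. A pair of the 47, PSMC3IP and PSME3IP1, match by symbol only: they are named after proteins that bind a PSM protein and are neither subunits nor assembly factors. PSMD13, a subunit of the lid, was not analysed here.

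The proteasome is the barrel-shaped protease that breaks down proteins tagged with ubiquitin. Its core particle, the 20S proteasome, is made of outer rings of alpha subunits, which form the gate, and inner rings of beta subunits, of which PSMB5, PSMB6 and PSMB7 carry the active sites. The regulatory particle (19S) binds ubiquitin, unfolds the substrate with a ring of ATPases (PSMC genes) and feeds it into the core, and together they form the 26S proteasome. In cells exposed to interferon, PSMB8, PSMB9 and PSMB10 replace PSMB5, PSMB6 and PSMB7 in newly built cores, which are then called immunoproteasomes and favour peptides that MHC class I can present. In early embryos the proteasome takes part in removing maternal proteins while the embryo's own genome is switched on.

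There were 4 groups of 2 libraries, each library from a pool of 5 embryos. All embryos came from oocytes of slaughterhouse ovaries that were matured in vitro and fertilised in vitro with Holstein semen. Edited embryos received PEmax and a guide RNA by injection into the zygote's cytoplasm. PEmax is a prime editor, a Cas9 nickase joined to a reverse transcriptase, and the labels name the edit A148G in RPL12, without saying from where the position is counted. RPL12 encodes a protein of the large ribosomal subunit. The groups were 4-cell control, 4-cell edited, 8-cell control and 8-cell edited embryos. The labels leave unsaid if controls were injected, what share of alleles carried the edit, if cumulus cells were taken off, and if the pools of a group came from separate collections, so p-values measure the spread between these pools, which may be technical. Titles speak of base editing and the protocol of prime editing, and the 4-cell samples carry oocytes as their source name although titled 4-cell embryos.

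Libraries held 33527531 to 35122409 reads, and 3 reads corresponded to 0.0858 to 0.0899 CPM. RPL12 itself was at 159 and 174 CPM (control) and 27.5 and 33.6 CPM (edited) at the 4-cell stage, then 96.3 and 97.6 CPM (control) and 14.1 and 11.9 CPM (edited) at the 8-cell stage. It was thus lower in edited embryos at both stages (log2 fold change -2.41 and -2.81). The oocyte markers GDF9, BMP15 and ZP3, genes of secreted growth factors and the egg coat, were present in every library. GDF9 was at 301 to 1035 CPM, BMP15 at 1519 to 5108 CPM and ZP3 at 93.4 to 273 CPM. The replicate libraries of a group correlated at r of 0.971 to 0.978 across genes, which are not independent replicates. The 4-cell control libraries differed from each other by a median of 0.37 log2 units (absolute) over the 47 genes, against 0.13 to 0.20 in the other groups.

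As a family, proteasome transcripts were most abundant in 4-cell control embryos and least abundant in edited embryos. The 49 genes summed to 20224 and 17845 CPM in the 4-cell control libraries and to 14458 and 15061 CPM in the 8-cell control libraries. In edited libraries the sums were 10372 and 10788 CPM at the 4-cell stage and 10639.7 and 11139.6 CPM at the 8-cell stage, so that all 4 edited libraries lay below all 4 control libraries. The sums include PSMC3IP and PSME3IP1, together 774 and 701 CPM in 4-cell edited and 1275 and 1326 CPM in 8-cell edited libraries. In control libraries these 2 summed to 586 and 710 CPM (4-cell) and 1274 and 958 CPM (8-cell). The edited sums are therefore not compared between stages. Whole embryos were sequenced, and CPM is a share of a library's reads. Fewer cells of a type, less RNA per cell and more RNA of other genes therefore cannot be told apart. The order of group means was 4-cell control above 8-cell control above both edited groups in 34 of the 47 tested genes (72.3%), against 29.8% of all 12129 genes tested. For 27 of the 47, all 4 edited libraries were below all 4 control libraries, and for 0 they were all above, where the shares over all tested genes were 19.6% below and 9.98% above.

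**Figure D1:**
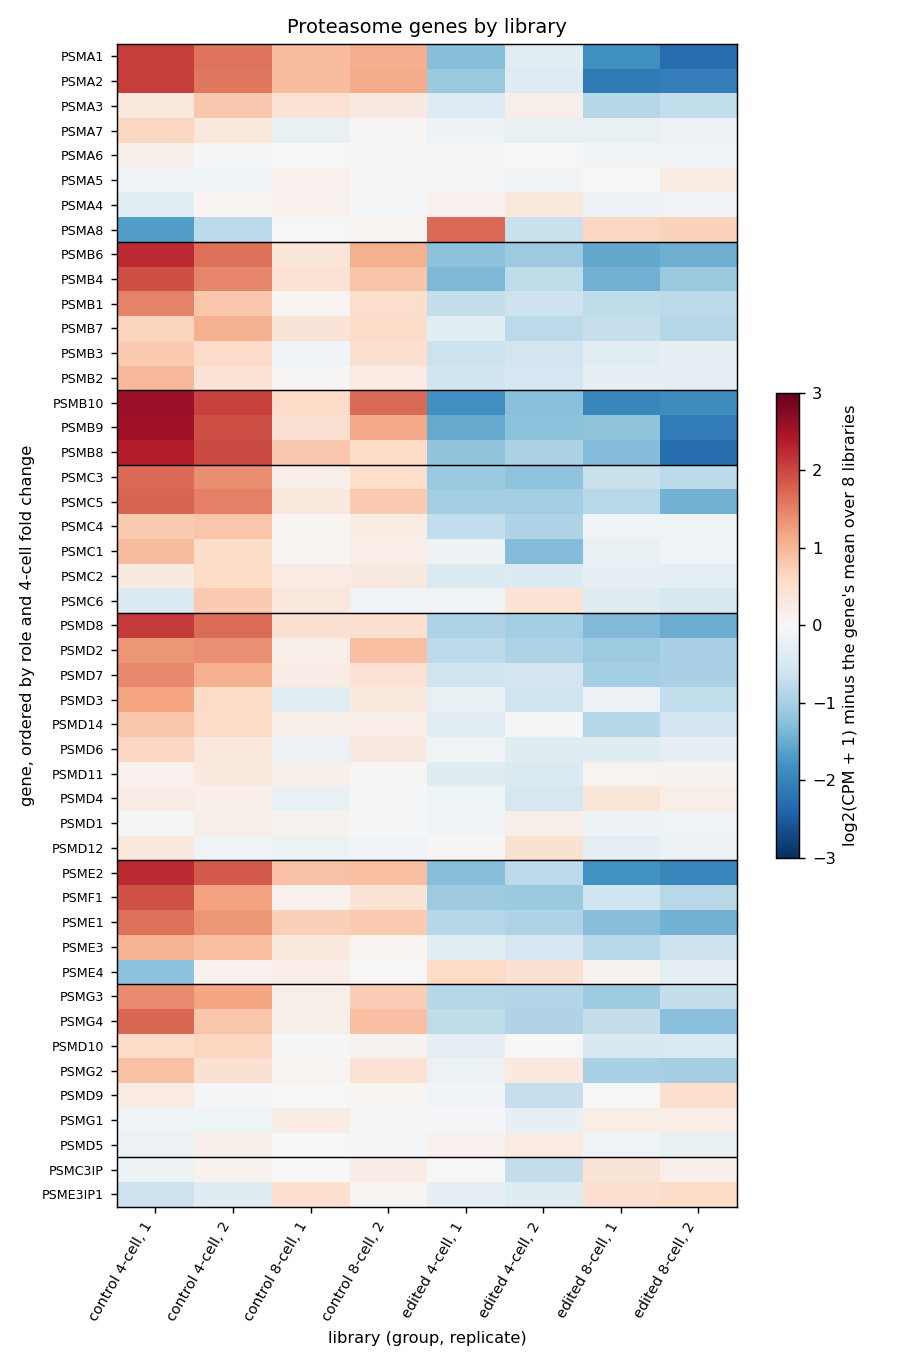
Log2(CPM + 1) of each of the 47 tested proteasome genes (rows, grouped by role) in each of the 8 libraries (columns), as the deviation from the gene's mean over the libraries, with the colour scale on the right. The 4-cell control columns are the highest for most rows of the beta, ATPase and activator groups, whereas rows such as PSMA5, PSMA6 and PSMG1 vary little between columns.

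At the 4-cell stage, 32 of the 47 genes were lower in edited embryos and 2 were higher (limma, adjusted p under 0.05 over all genes). Over all genes tested, 25.8% were called lower and 18.9% higher in that comparison. The median log2 fold change of the 47 was -1.28, against -0.02 over all genes, and 16 genes were at least 4-fold lower. At the 8-cell stage 23 of the 47 were lower, where 14.5% of all genes were, and 0 were higher, where 1.08% of all genes were. No proteasome gene was higher at an unadjusted p under 0.05 in limma at that stage, and edgeR and DESeq2 also called 0 higher. The 8-cell median was -0.54, against 0.01 over all genes. Of the 32 genes lower at the 4-cell stage, 22 were also called lower at the 8-cell stage and 10 were not, and PSMG2 was called lower at the 8-cell stage and not at the 4-cell stage. These counts do not show that the effect differed between stages, which was tested separately. Edited and control libraries did not overlap, with the edited ones lower, for 35 of the 47 genes at each stage, where 37.5% and 32.7% of all genes were in that position. Leaving out PSMC3IP and PSME3IP1, which were called at neither stage, leaves 32 lower and 2 higher of 45 at the 4-cell stage and 23 lower of 45 at the 8-cell stage.

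**Figure D2:**
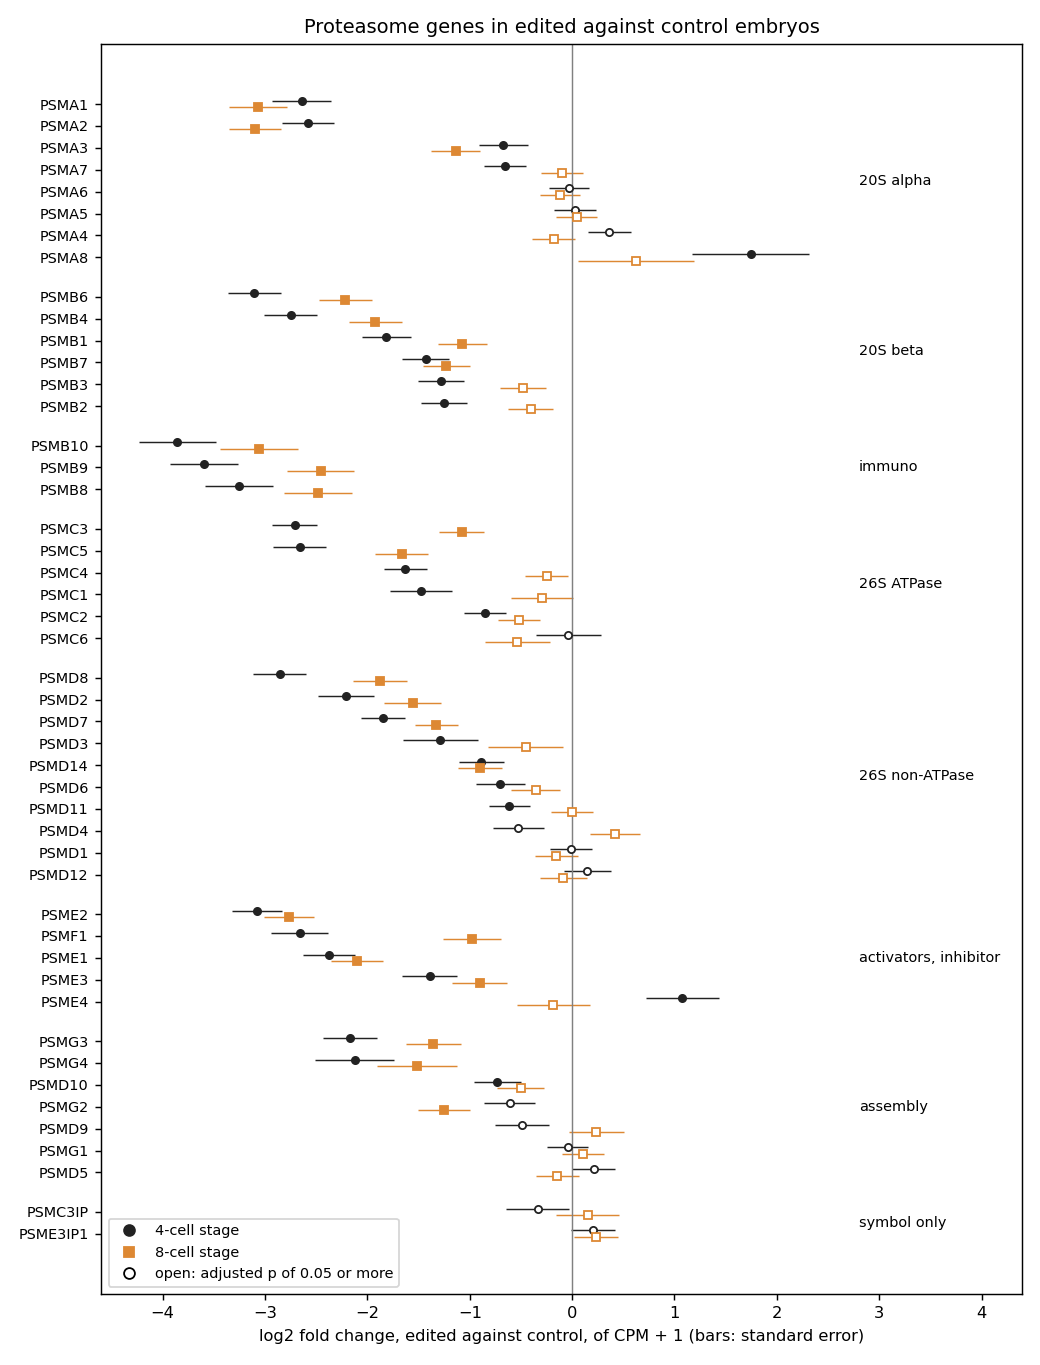
Log2 fold change of edited against control embryos (horizontal axis, log2(CPM + 1) scale) for each tested proteasome gene at the 4-cell and 8-cell stage, with bars of 1 standard error and filled points where limma's adjusted p was under 0.05. The 3 immunoproteasome genes, PSMB6 and PSME2 lie farthest to the left at the 4-cell stage, and PSMA8 and PSME4 are the 2 filled points to the right of 0.

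The alpha subunits, which form the gate of the core, were split. PSMA1 and PSMA2 were strongly lower in edited embryos at both stages, whereas PSMA4, PSMA5 and PSMA6 were not called at either. PSMA1 was at 998.5 and 733 CPM (control) and 97.5 and 189.8 CPM (edited) at the 4-cell stage, then 452 and 509 CPM (control) and 66.0 and 47.95 CPM (edited) at the 8-cell stage. The edited libraries lay well below the controls at each stage. Its log2 fold changes were -2.64 (SE 0.29, adjusted p = 4.24e-06) for 4-cell and -3.07 (adjusted p = 4.14e-06) for 8-cell embryos.

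PSMA2 had 1249 and 891 CPM (control) and 136 and 225 CPM (edited) at the 4-cell stage, then 562 and 643 CPM (control) and 67.3 and 71.5 CPM (edited) at the 8-cell stage. It changed by -2.58 in 4-cell and by -3.10 in 8-cell embryos, the latter the lowest value of the 47 at that stage. By contrast, PSMA5 stood at 2165 and 2105 CPM in 4-cell control and at 2229.7 and 2138 CPM in 4-cell edited libraries, and at 2515 and 2376 against 2329 and 2721 CPM at the 8-cell stage. The groups of PSMA5 overlapped at both stages, and its 95% interval for the log2 fold change ran from -0.40 to 0.47 at the 4-cell stage and from -0.39 to 0.48 at the 8-cell stage. For PSMA6 the intervals were -0.45 to 0.39 and -0.54 to 0.30. Thus changes as large as those of PSMA1 and PSMA2 lay outside the intervals of PSMA5 and PSMA6.

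PSMA3 was lower at both stages (-0.67 and -1.14), and PSMA7 was lower at the 4-cell stage (-0.66) and at -0.10 with an adjusted p of 0.795 at the 8-cell stage. PSMA8, an alpha subunit known from the testis that replaces PSMA7, was called higher at the 4-cell stage. It had 1.04 and 2.79 CPM in the control and 20.1 and 3.10 CPM in the edited 4-cell libraries, and 5.58 and 5.71 against 9.03 and 9.46 CPM at the 8-cell stage. The call rests on 1 edited library: the log2 fold change of 1.74 (SE 0.569, adjusted p = 0.0203) became 0.56 without 4-cell edited replicate 1 and was not called. It was also not called without 4-cell control replicate 1 (1.30) or without a filter on low values. The 2 sperm markers in the table, ODF1 and AKAP4, summed to 15.6 CPM in that same edited library, mostly from AKAP4, and to 0.65 to 5.08 CPM in the others. At the 8-cell stage the sums were 5.08 and 4.85 CPM in edited and 1.17 and 0.65 CPM in control libraries. AKAP4 was called higher there (1.79, limma adjusted p = 0.0313). The part of these markers in the PSMA8 result was not tested. PRM1 and TNP1, the defining sperm markers, were not among the genes analysed.

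All 6 tested constitutive beta subunits were lower in edited embryos at the 4-cell stage, where 25.8% of all genes were. At the 8-cell stage 4 of them, PSMB1, PSMB4, PSMB6 and PSMB7, were lower, where 14.5% of all genes were. PSMB6, the subunit with caspase-like activity, fell the most of these. It was at 960.3 and 642 CPM in 4-cell control and at 86.1 and 94.4 CPM in 4-cell edited libraries. At the 8-cell stage it was at 264 and 429.5 CPM in control and at 69.8 and 73.3 CPM in edited libraries, so that the edited libraries of both stages lay between 69.8 and 94.4 CPM. The log2 fold changes were -3.11 (SE 0.259, adjusted p = 8.88e-07) and -2.22 (adjusted p = 2.37e-05).

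PSMB7, the subunit with trypsin-like activity, had 344 and 454 CPM (control) and 169 and 126 CPM (edited) at the 4-cell stage, then 282 and 314 CPM (control) and 134 and 119 CPM (edited) at the 8-cell stage. It was lower by less than PSMB6, at -1.43 (adjusted p = 0.00013) and -1.23 (adjusted p = 0.0011), and its groups did not overlap at either stage. PSMB4, a subunit without an active site, was lower at both stages (-2.75 and -1.93), as was PSMB1 (-1.82 and -1.07). PSMB2 and PSMB3, which also lack active sites, were lower at the 4-cell stage (-1.25 and -1.28) and were at -0.41 and -0.48 at the 8-cell stage, where neither was called. PSMB5, the subunit with chymotrypsin-like activity, was counted at 8 to 14 reads in control libraries and at 0, 2, 2 and 15 reads in edited ones. Its RefSeq gene overlaps that of PSMB11, a thymus subunit counted at 0 to 16 reads. How reads on overlapping genes were counted is not given in the sources used here, so the level of either gene is uncertain.

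The immunoproteasome subunits had the 3 lowest log2 fold changes of the family at the 4-cell stage and were lower at both stages. PSMB8, the inducible counterpart of PSMB5, was at 132 and 101 CPM (control) and 10.2 and 12.4 CPM (edited) at the 4-cell stage, then 44.0 and 38.0 CPM (control) and 9.41 and 4.37 CPM (edited) at the 8-cell stage. PSMB9, the counterpart of PSMB6, was at 322 and 213.5 CPM (control) and 18.6 and 23.1 CPM (edited) at the 4-cell stage, then 76.9 and 123 CPM (control) and 23.5 and 12.1 CPM (edited) at the 8-cell stage. PSMB10, the counterpart of PSMB7, was at 109.99 and 74.8 CPM (control) and 4.17 and 6.76 CPM (edited) at the 4-cell stage, then 26.5 and 58.5 CPM (control) and 3.74 and 3.98 CPM (edited) at the 8-cell stage. For each of the 3, every edited library was below every control library of either stage.

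At the 4-cell stage the log2 fold change was -3.86 for PSMB10 (SE 0.38, adjusted p = 1.81e-06), -3.60 for PSMB9 (SE 0.328, adjusted p = 1.2e-06) and -3.25 for PSMB8 (SE 0.331, adjusted p = 2.42e-06). At the 8-cell stage it was -3.06, -2.46 and -2.49 in the same order, with adjusted p of 3.74e-05, 6.65e-05 and 6.63e-05. PSMB10 overlaps LCAT, an enzyme gene of plasma lipoproteins, in RefSeq. How reads on the stretch they share were counted is not given in the sources used here. PSMB8 and PSMB9 lie on either side of TAP1, the peptide transporter of antigen presentation. TAP1 was also lower in edited embryos, by -2.41 and -2.48.

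**Figure D3:**
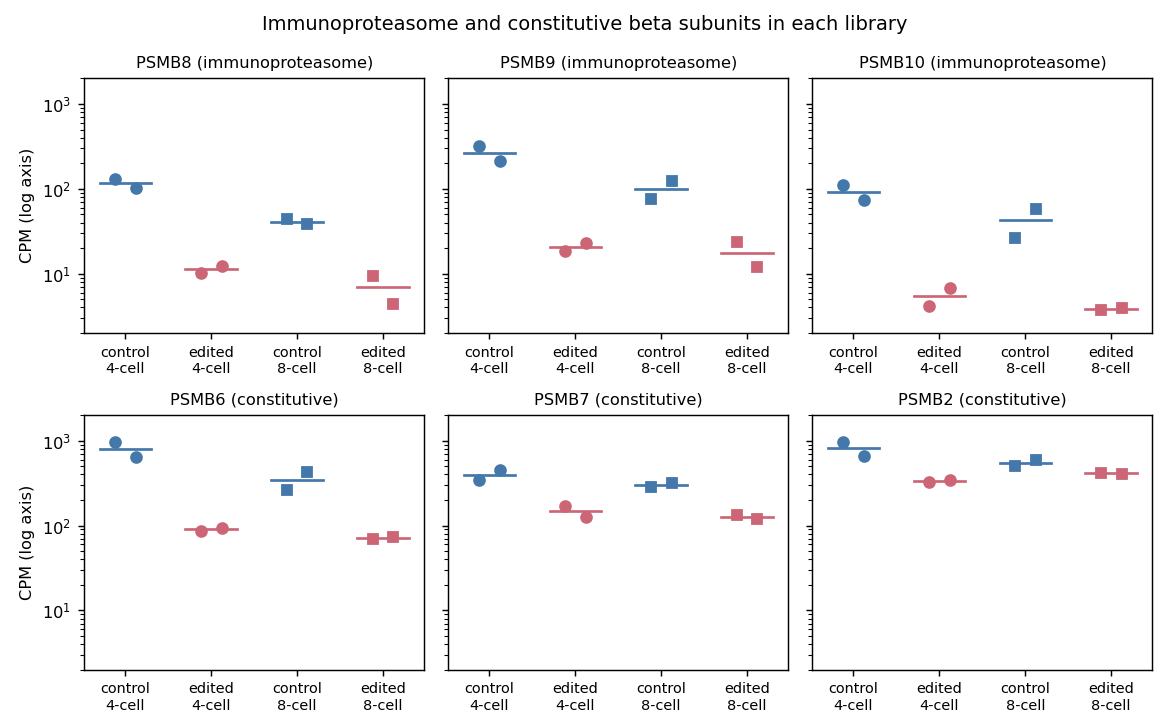
CPM (log axis) of PSMB8, PSMB9 and PSMB10 (upper row) and of the constitutive beta subunits PSMB6, PSMB7 and PSMB2 (lower row) in each library, with control libraries in blue, edited ones in red, circles for the 4-cell and squares for the 8-cell stage, and a line at each group's mean. Edited libraries lie below the controls of the same stage in every panel, with the widest gaps for the upper row and PSMB6, and PSMB2 is closest to its controls at the 8-cell stage.

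Whether the inducible subunits moved more than the constitutive ones was read within each library, as the log2 ratio of PSMB8 to PSMB5, of PSMB9 to PSMB6 and of PSMB10 to PSMB7. Since CPM is not per length, such a ratio is read between libraries only and not as a ratio of transcripts. The PSMB10 to PSMB7 ratio (edited minus control) differed by -2.42 log2 units in 4-cell and -1.83 in 8-cell embryos, or -2.13 over both, with a spread within groups of 0.602 (SD). The PSMB9 to PSMB6 ratio differed by -0.49 and -0.24, or -0.36 over both, about as much as its spread of 0.348. That value moved to -0.61 without 8-cell edited replicate 1 and to -0.12 without 8-cell edited replicate 2. The PSMB8 to PSMB5 ratio differed by -2.65, which rests on PSMB8 alone, given the few reads of PSMB5.

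An exact two-sided permutation test within stages gave p = 0.0556 for PSMB10 to PSMB7 and for PSMB8 to PSMB5, which is the smallest p this design allows, and adjusted p = 0.0833 over the 3 pairs. For PSMB9 to PSMB6 it gave p = 0.167 (exact permutation, adjusted p = 0.167), and p = 0.0556 (exact permutation), the smallest possible, without 8-cell edited replicate 1. The summed CPM of the 3 inducible genes was 10.7% and 10.0% of the sum of the 6 constitutive beta genes in 4-cell control libraries and 6.53% and 7.22% in 8-cell control libraries. It was 2.67% and 3.26% in 4-cell edited and 2.79% and 1.56% in 8-cell edited libraries, below all control libraries.

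Of the ATPases, which unfold substrates, 5 of 6 were lower in edited embryos at the 4-cell stage, where 25.8% of all genes were. At the 8-cell stage 2 of 6, PSMC3 and PSMC5, were lower, where 14.5% of all genes were. PSMC3 had 477 and 389 CPM in 4-cell control and 67.1 and 62.8 CPM in 4-cell edited libraries, and 166 and 211 against 92.2 and 84.1 CPM at the 8-cell stage. Controls fell between the stages while the edited libraries were low at both, and the changes were -2.71 (SE 0.22, adjusted p = 8.45e-07) and -1.08 (adjusted p = 0.00263). PSMC5 had 309.9 and 260.4 CPM (control) and 44.0 and 44.2 CPM (edited) at the 4-cell stage, then 112 and 158 CPM (control) and 50.7 and 33.4 CPM (edited) at the 8-cell stage. Its changes were -2.66 and -1.66, both called.

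PSMC1 (-1.47), PSMC2 (-0.85) and PSMC4 (-1.63) were lower at the 4-cell stage, and at -0.30, -0.52 and -0.25 at the 8-cell stage they were not called. PSMC6 was called at neither stage. Its 4-cell control libraries were far apart, at 163 and 375 CPM, with edited libraries between them at 198 and 291 CPM.

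The non-ATPase subunits form the lid and the scaffold of the regulatory particle. Of 10 tested, 7 were lower in edited embryos at the 4-cell stage and 4 at the 8-cell stage, against 25.8% and 14.5% of all genes. PSMD8, a lid subunit, was at 164 and 121 CPM (control) and 19.1 and 18.0 CPM (edited) at the 4-cell stage, then 51.9 and 52.8 CPM (control) and 14.4 and 12.7 CPM (edited) at the 8-cell stage. The groups were far apart at both stages, with changes of -2.86 (SE 0.26, adjusted p = 1.23e-06) and -1.88 (adjusted p = 9.85e-05).

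PSMD7, the lid subunit that pairs with the deubiquitinase PSMD14, was at 579.9 and 449.6 CPM (control) and 139.8 and 143 CPM (edited) at the 4-cell stage, then 249 and 288 CPM (control) and 104 and 109 CPM (edited) at the 8-cell stage. It changed by -1.85 and -1.33, and PSMD14, which removes ubiquitin chains from substrates, by -0.89 and -0.90, all called. PSMD2, one of the large scaffold subunits, was lower at both stages (-2.21 and -1.56), whereas the other, PSMD1, was called at neither (95% interval -0.45 to 0.42 at the 4-cell stage). PSMD3, PSMD6 and PSMD11 were lower at the 4-cell stage (-1.29, -0.70 and -0.61) and not called at the 8-cell stage. PSMD12 and the ubiquitin receptor PSMD4 were called at neither stage.

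The regulators that cap the core in place of the 19S particle showed changes in both directions. PSME1 and PSME2 form the interferon-inducible activator PA28, and both were lower in edited embryos at both stages. PSME2 had 469.9 and 351 CPM (control) and 39.6 and 56.3 CPM (edited) at the 4-cell stage, then 180.0 and 183 CPM (control) and 27.2 and 24.5 CPM (edited) at the 8-cell stage. The groups did not overlap at either stage, and its changes were -3.08 (SE 0.24, adjusted p = 6.43e-07) and -2.77 (adjusted p = 3.36e-06), and those of PSME1 were -2.38 and -2.10. PSME3, the nuclear relative of PA28, was lower by less (-1.39 and -0.90).

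PSMF1, known as the inhibitor PI31, was at 159 and 97.3 CPM (control) and 19.1 and 18.6 CPM (edited) at the 4-cell stage, then 46.0 and 55.4 CPM (control) and 27.3 and 23.1 CPM (edited) at the 8-cell stage. It was lower at both stages, by -2.66 and by -0.98 (adjusted p = 3.32e-06 and 0.024). PSME4, the nuclear activator PA200, was called higher at the 4-cell stage, at 14.7 and 39.4 CPM in control and 54.7 and 49.7 CPM in edited libraries. At the 8-cell stage it was at 41.1 and 35.8 against 38.7 and 29.3 CPM, where the groups overlapped. Its 4-cell change of 1.08 (SE 0.357, adjusted p = 0.0221) rests on the lower control library: without 4-cell control replicate 1 it was 0.40, and the call was also lost without either edited library or without a filter on low values.

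Of the 7 assembly factors, 3 were lower in edited embryos at each stage, where 25.8% (4-cell) and 14.5% (8-cell) of all genes were. PSMG3 and PSMG4, which act together in building the alpha ring, were lower at both. PSMG3 was at 136 and 117 CPM (control) and 27.5 and 26.9 CPM (edited) at the 4-cell stage, then 57.3 and 85.4 CPM (control) and 23.5 and 30.3 CPM (edited) at the 8-cell stage, with changes of -2.17 and -1.36 (adjusted p = 1.28e-05 and 0.00176). PSMG4 was at 42.6 and 22.5 CPM (control) and 6.71 and 5.97 CPM (edited) at the 4-cell stage, then 13.7 and 23.6 CPM (control) and 7.05 and 4.49 CPM (edited) at the 8-cell stage. Its changes were -2.12 and -1.51, and its groups overlapped at neither stage.

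Of the other alpha-ring chaperone pair, PSMG1 and PSMG2, PSMG1 was called at neither stage (95% interval -0.47 to 0.39 at the 4-cell stage and -0.32 to 0.54 at the 8-cell stage). PSMG2 was lower at the 8-cell stage (-1.25, adjusted p = 0.00211) and at -0.61 with adjusted p = 0.0585 at the 4-cell stage. Of PSMD5, PSMD9 and PSMD10, chaperones of the ATPase ring, PSMD10 was lower at the 4-cell stage (-0.73) and the other two were called at neither. POMP, the maturation factor of the 20S core, has no PSM symbol, and it was at 0.14 and -0.40 with no call at either stage.

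Between stages, 11 proteasome genes were lower in 8-cell than in 4-cell control embryos and 1 was higher, where 6.27% of all genes were lower and 2.75% higher. This comparison shares its control libraries with both comparisons of editing. The 11 genes were PSMB1, PSMB4, PSMB6, PSMB8, PSMB9, PSMC3, PSMC5, PSMD7, PSMD8, PSME2 and PSMF1, with log2 fold changes from -0.86 (PSMB1) to -1.48 (PSMB8). The 1 gene higher was PSME3IP1, a symbol match that is no subunit, at 566 and 686 CPM in 4-cell and 1250.3 and 931 CPM in 8-cell control libraries. The count of 11 depends on single libraries and on the tool: it was 0 without 4-cell control replicate 1 and without 8-cell control replicate 1, 17 without 4-cell control replicate 2, 2 with edgeR and 18 with DESeq2.

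Within edited embryos, 3 proteasome genes were lower in 8-cell than in 4-cell pools and 1 was higher, where 3.73% of all genes were lower and 1.45% higher. PSMA1 (-1.26), PSMA2 (-1.32) and the alpha-ring chaperone PSMG2 (-1.05) were lower, and PSME3IP1 (0.82) was again higher. The difference of the editing effect between stages was called for 3 genes, PSMC3 (1.63, SE 0.315, adjusted p = 0.0213), PSMC4 (1.38, SE 0.296, adjusted p = 0.0283) and PSMF1 (1.68, SE 0.397, adjusted p = 0.0352), where 1.95% of all genes were called in that direction. In each, edited embryos lay farther below the controls among 4-cell than among 8-cell embryos. PSMC4 was at 269 and 277 CPM in control and 92.7 and 82.7 CPM in edited embryos at the 4-cell stage, and at 162 and 182 against 145 and 144 CPM at the 8-cell stage. The count was 0 with edgeR, which had 9 such genes at an unadjusted p under 0.05, and 3 with DESeq2. It was 0 without either edited library of either stage or without 8-cell control replicate 1, 2 without 4-cell control replicate 1 and 6 without 4-cell control replicate 2.

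Genes that work with the proteasome were read from lists of related genes, described here by counts and medians, to be read against the shares over all genes of 25.8% lower and 18.9% higher at the 4-cell stage and 14.5% lower and 1.08% higher at the 8-cell stage. Of 22 tested partners without a PSM symbol, 9 were lower and 3 higher in edited embryos at the 4-cell stage, and 4 were lower at the 8-cell stage, with medians of -0.48 and -0.23. The partners' shares higher at the 4-cell stage and lower at the 8-cell stage were near those over all genes. UFD1, an adaptor of the unfoldase VCP, was lower at both stages (-2.64 and -1.13), as was the lid subunit SEM1 (-1.03 and -1.29). ADRM1, a ubiquitin receptor, was lower at the 4-cell stage (-1.73). AKIRIN2, which brings proteasomes into the nucleus, was higher at the 4-cell stage (1.87), at 221 and 479 CPM in control and 1433 and 986 CPM in edited libraries, and ZFAND5, a proteasome-binding protein, likewise (1.82). USP14, a deubiquitinase on the proteasome, was lower at the 8-cell stage (-0.81).

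UBB, which encodes a chain of ubiquitin, was lower in edited embryos at the 4-cell stage (-0.83, adjusted p = 0.00542) and was not called at the 8-cell stage. Of 6 tested genes of transcriptional control of the proteasome, NFE2L2, the stress factor NRF2, was lower at both stages (-1.53 and -0.78). NGLY1, the enzyme that processes NFE2L1, was higher at the 4-cell stage (1.27). NFE2L1, the factor that raises proteasome genes when proteasome activity is short, was at 27.0 and 31.1 CPM in 4-cell control and 27.2 and 14.9 CPM in 4-cell edited libraries and was called at neither stage.

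Genes of MHC class I antigen processing, which receives the peptides that immunoproteasomes cut, were lower in 8 of 10 tested at each stage, with medians of -1.84 and -1.56. B2M, the light chain of MHC class I, changed by -1.41 and -1.998, and TAPBP, which loads peptides, by -2.82 and -2.52. Of 26 tested interferon-stimulated genes, 24 were lower at the 4-cell stage and 23 at the 8-cell one, with medians of -2.55 and -3.05. Of the chains of the interferon-gamma receptor, IFNGR2 was lower at both stages (-3.19 and -2.72), whereas IFNGR1 was higher at the 4-cell stage (0.77, adjusted p = 0.0154) and not called at the 8-cell stage. IRF1, a factor that drives PSMB9 and TAP1, was low, at 2.54 to 11.3 CPM, and was called at neither stage. IRF1 in edited 8-cell libraries (6.63 and 11.3 CPM) nevertheless lay above its 8-cell controls (3.92 and 2.54 CPM). Its changes were -0.44 (4-cell) and 1.21 (8-cell), with limma adjusted p of 0.448 and 0.0802.

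Lists of markers of cells other than the embryo were read in the same groups, and the cumulus and mesenchymal sums differed between control and edited libraries. Which cells these transcripts came from was not tested. Of 19 tested cumulus and granulosa markers, 11 were lower and 2 higher in edited embryos at the 4-cell stage and 4 lower at the 8-cell stage, with medians of -1.11 and -0.945. Over all genes 25.8% were lower and 18.9% higher at the 4-cell stage and 14.5% lower at the 8-cell stage. The markers summed to 1203 to 1575 CPM in 4-cell control, 636 to 815 in 8-cell control, 504 to 541 in 4-cell edited and 519.9 to 536 CPM in 8-cell edited libraries. The defining members of the list were low throughout, FSHR at 0.27 to 9.68 CPM, CYP19A1 at 0.90 to 2.25 CPM, AMH at 0.27 to 2.64 CPM and FOXL2 at 0 to 0.46 CPM. Other members were abundant in controls: CYP11A1, a steroid-synthesis enzyme, was at 227 and 201 CPM in 4-cell control and at 3.33 and 14.5 CPM in 4-cell edited libraries. FST, the activin-binding protein follistatin, was at 177 and 101 against 5.26 and 2.87 CPM, and the protease inhibitor SERPINE2 at 691 and 347 against 117 and 115 CPM. The 3 were lower at both stages, with 4-cell changes of -4.71, -4.78 and -2.07. The 2 markers called higher at the 4-cell stage were HAS2 (1.77) and GREM1 (1.07). HAS2 was at 24.3 and 55.4 CPM in 4-cell control and at 132 and 124 CPM in 4-cell edited libraries. STAR, at 159 and 193 CPM in 4-cell control and 127 and 126 CPM in 4-cell edited libraries, was called at neither stage. All 7 mesenchymal markers were lower at the 4-cell stage and 6 at the 8-cell one, with sums of 4592 to 7800 CPM in 4-cell control, 3290.3 to 3660 in 8-cell control, 1494 to 2220 in 4-cell edited and 215 to 869 CPM in 8-cell edited libraries. LUM made up most of each mesenchymal sum.

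The 8 leukocyte markers in the table summed to 19.6 to 40.2 CPM. Of the 4 tested, 1 was lower at the 4-cell stage, near the share of 25.8% over all genes. At the 8-cell stage 1 was higher, where 1.08% of all genes were. Of its defining markers, PTPRC was at 0.06 to 0.67 CPM, CD14 at 0 to 1.71 CPM and CD3E at 2.52 to 10.6 CPM. Of 12 oocyte and early embryo markers, 5 were higher in edited embryos at the 4-cell stage and 2 at the 8-cell one. Over all genes 18.9% and 1.08% were higher. The 12 summed to 18372 to 24265 CPM in 4-cell control and 34494 to 51876 CPM in all other libraries. BTG4 made up most of each sum, at 12015.5 and 14925 CPM in 4-cell control and 23479 to 37563 CPM in all other libraries. At the 4-cell stage ZP3, ZP4, KPNA7 and PADI6 were at -0.34, -0.16, -0.35 and -0.05, with no call. The sums of the cumulus, mesenchymal and oocyte lists thus differ between the groups that the proteasome genes differ between, and their part in the proteasome results was not tested.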

How the data were processed

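RNA from pools of embryos was made into cDNA with a SMART-Seq kit and tagmented with a Nextera XT kit, per the labels' protocols. Trim Galore 0.6.7, HISAT2 2.2.1 and featureCounts 2.0.1 are named in the submitters' processing notes. The genome build, annotation and strand setting are not given in the sources used here. The deposited values are CPM, although the table is named for raw counts: within each library, 100% of the values above 0 came out as whole reads (tolerance 0.05 reads) once divided by a common step. The 4 columns that match no sample were not used.

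Members and lists were chosen with earlier results of these data known. The 12129 genes whose mean reached 1 CPM were fitted on log2(CPM + 1) in limma 3.58.1 under R 4.3.3 (eBayes with trend), with 1 mean per group over all 8 libraries. P-values were adjusted over all genes by the Benjamini-Hochberg method and called under 0.05. Log2 fold changes are on that scale and understate changes of low genes. Errors are limma's standard errors, and intervals are 95% intervals from its moderated fit. The 3 pair ratios were tested by exact permutation within stages. Proteasome genes described in full are the pairs of inducible and constitutive beta subunits and, per role, the 2 with the smallest p at the 4-cell stage, 1 at the 8-cell stage and any called the other way; all others are named with fewer values, and from each other list up to 3 called genes per comparison. Defining markers of each cell type list are given whatever their values, where they were among the genes analysed. Other genes outside that rule, among them POMP, ADRM1, NFE2L1, IRF1, IFNGR1, ODF1 and TAP1 at the 4-cell stage, were named after their values were seen. Alternatives were other scalings, pseudocounts and filters, edgeR 4.0.16 and DESeq2 1.42.0 on the reads recovered from the CPM steps, other sets of libraries and a replicate block. Only the limma fit was run on simulated data, for the 4-cell comparison of edited with control embryos. That simulation changed far fewer genes than were called in these data, and the other fits and comparisons were not simulated. RefSeq (ARS-UCD2.0) was used for gene names, neighbours and overlaps only, and all 49 symbols matched. Overlaps with another RefSeq gene were found for 15 of them, whose reads may be shared. The cDNA was amplified and carries no molecular identifiers, so reads are not independent molecules. Some genes of the lists of related genes are not reported here.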

Additional observations from a re-analysis of the deposited data

Results flagged for a closer look

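For 3 proteasome genes the effect of editing differed between the stages by the interaction term of the limma fit, with edited embryos farther below the controls at the 4-cell stage. The 8-cell minus 4-cell difference of the log2 fold change was 1.68 for the inhibitor PSMF1, 1.63 for the ATPase PSMC3 and 1.38 for the ATPase PSMC4. The edited libraries of PSMF1 were at 19.1 and 18.6 CPM at the 4-cell and 27.3 and 23.1 CPM at the 8-cell stage, and those of PSMC3 at 67.1 and 62.8 CPM and at 92.2 and 84.1 CPM. The control libraries of PSMF1 were at 159 and 97.3 CPM at the 4-cell and 46.0 and 55.4 CPM at the 8-cell stage. In several settings 0 proteasome genes were called in this comparison: with edgeR in place of limma (9 at an unadjusted p under 0.05), without a filter on low values (12 unadjusted), and without either edited library of either stage or without 8-cell control replicate 1 (5 to 10 unadjusted).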

How the results depend on the processing

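With 2 libraries a group, the number of libraries limits the precision, and the few reads counted for PSMB5 and PSMB11 allow no comparison of them. The 32 genes lower at the 4-cell stage numbered 28 to 32, and the 23 lower at the 8-cell stage 16 to 23, when 1 library was left out. Under the other settings they numbered 27 (edgeR) to 32 and 21 (no filter) to 24 (only the libraries compared). The 2 higher at the 4-cell stage became 0 to 2 when 1 library was left out and 0 without a filter on low values (2 at an unadjusted p under 0.05). The 3 genes with a stage difference became 0 without a filter (12 at an unadjusted p under 0.05), 0 with edgeR (9 unadjusted) and 0 to 6 without 1 library, and genes with the opposite difference 0 to 1. Between stages in control embryos, the 11 lower genes became 0 without a filter (24 unadjusted), 2 with edgeR, 18 with DESeq2, 2 with only the libraries compared and 0 to 17 without 1 library. The 1 higher became 0 with recomputed TMM factors, median-of-ratios factors, no filter, edgeR or only the libraries compared (1 to 2 unadjusted), and 0 to 2 without 1 library. In edited embryos, the 3 lower became 0 without a filter (6 unadjusted), 1 with edgeR and 0 to 4 without 1 library. The 1 higher became 0 with TMM or median-of-ratios factors, no filter, edgeR or the replicate block (4 to 5 unadjusted), 2 with a mean of at least 5 CPM, DESeq2 or only the libraries compared, and 0 to 2 without 1 library. The cause was not tested.

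In a variant of the ratio test, labels were permuted over all 8 libraries, which ignores stage. The differences of -2.65 (PSMB8 to PSMB5) and -2.13 (PSMB10 to PSMB7) then gave p = 0.0286 (exact permutation, adjusted p = 0.0429). That p is the smallest these permutations allow, and PSMB8 to PSMB5 rests on PSMB8 alone. For PSMB9 to PSMB6 (-0.36) the adjusted p was 0.171 (exact permutation). Within stages, as planned, the first 2 pairs had an adjusted p of 0.0833 (exact permutation). PSME4 at the 8-cell stage, -0.18, ranged from -0.38 to 0.0134 (the latter without 8-cell edited replicate 2) and was called in none of these.

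Library names end in a letter, which is D for replicate 2 of every group and C for replicate 1 of both edited groups. For replicate 1 of the controls it is A at the 4-cell and B at the 8-cell stage. The labels used here do not say what the letters stand for. Deviations of same-numbered libraries correlated at 0.11, -0.09, -0.30 and 0.02 in the 4-cell, 8-cell, control and edited comparisons. The replicate block gave 32 lower and 2 higher at the 4-cell stage, 23 lower at the 8-cell stage, 3 stage differences, 11 lower and 1 higher between stages in control embryos and 3 lower in edited embryos. A crossed block, added after seeing the data, gave 15 lower and 1 higher between stages in control embryos.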
